A study of Mus musculus with 6 samples.

Results

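The Gimap genes encode GTPases of immunity-associated proteins, and 8 of them make up the family as examined here: Gimap1, Gimap3, Gimap4, Gimap5, Gimap6, Gimap7, Gimap8 and Gimap9. They were taken from the 19505 genes of the array by their symbol in the platform annotation. All 8 were on the array, each with 1 probe set, so the rule that the probe set be chosen by the highest mean over the 6 arrays decided nothing. The family was proposed for examination with earlier results of the same arrays known, so its group differences are a description of these samples and carry no independent weight.

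Gimap proteins share a GTP-binding domain and many of them sit on the membranes of organelles inside the cell. They are known above all from T cells, B cells and NK cells, where several members govern whether a resting lymphocyte survives; rodents that lack functional Gimap5 become short of T cells. Some members are also transcribed in endothelial cells, so in microglial isolates these genes are read beside markers of lymphocytes and of vessels.

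The RNA came from brain microglia of female C57BL/6 mice at the peak of experimental autoimmune encephalomyelitis (EAE), a model of multiple sclerosis. Every group had been immunised with recombinant myelin oligodendrocyte glycoprotein (rMOG) in IFA, followed by intravenous pertussis toxin. There were 3 control samples and 3 samples with the genotype B cell conditional knock-out (CKO), 1 array each, and the series title speaks of GM-CSF-expressing B cells. The deleted gene, the promoter driving the deletion, the genotype of the controls, the age of the mice, any pooling of animals and the way microglia were isolated are not stated in the labels used here. Nothing in the labels makes the replicates separate animals, so each p-value reflects sample-to-sample spread alone, part or all of which may be technical.

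Each array gave 22206 log2 values between 2.93 and 19.93, and precision is limited by the number of arrays. P2ry12, a receptor gene of resting microglia, was at 18.76 to 19.72 on the 6 arrays. Cd3e, a subunit of CD3 on T cells, lay at 9.59 to 12.55 in controls and 6.48 to 8.21 in CKO, and the neutrophil genes Ngp and S100a8, named after their values were seen, lay at 19.23 to 19.67 and 16.56 to 17.46 over all arrays. The isolates thus also held RNA of other leukocytes. Astrocyte markers peaked on 2 arrays, CKO replicate 1 and control replicate 2, whose mean deviations were 2.60 and 1.08 from their 6-array means, against -1.27 to -0.72 on the other arrays. CKO replicates 2 and 3 had the narrowest spread of values, with interquartile ranges of 3.08 and 3.11 against 3.66 to 4.0. Results of the members are given with and without these arrays. For the other gene lists, only the settings that are named were given.

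Across the family, 7 of 8 members had lower mean values in CKO, as did 44.5% of all probe sets, and 1 was slightly higher. The median difference, CKO minus control, was -1.16 on the log2 scale, against 0.06 over all probe sets. For 6 of 8 members every CKO array lay below every control array, which held for 8.48% of all probe sets. Means of 4 members were at least 2-fold lower, as they were for 4.42% of all probe sets. No member passed the test over all genes: 0 of 8 had a limma adjusted p under 0.05, a level reached by 0.00901% of probe sets, and 0 of 8 had one under 0.1, reached in the lower direction by 0.198%. At an unadjusted p under 0.05, 6 of 8 were lower, against 6.35% of all probe sets, and 0 of 8 higher, against 3.55%. Fewer cells with Gimap RNA in an isolate and less Gimap RNA per cell cannot be told apart in bulk RNA. Which cells the Gimap RNA came from was not tested.

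**Figure D1:**
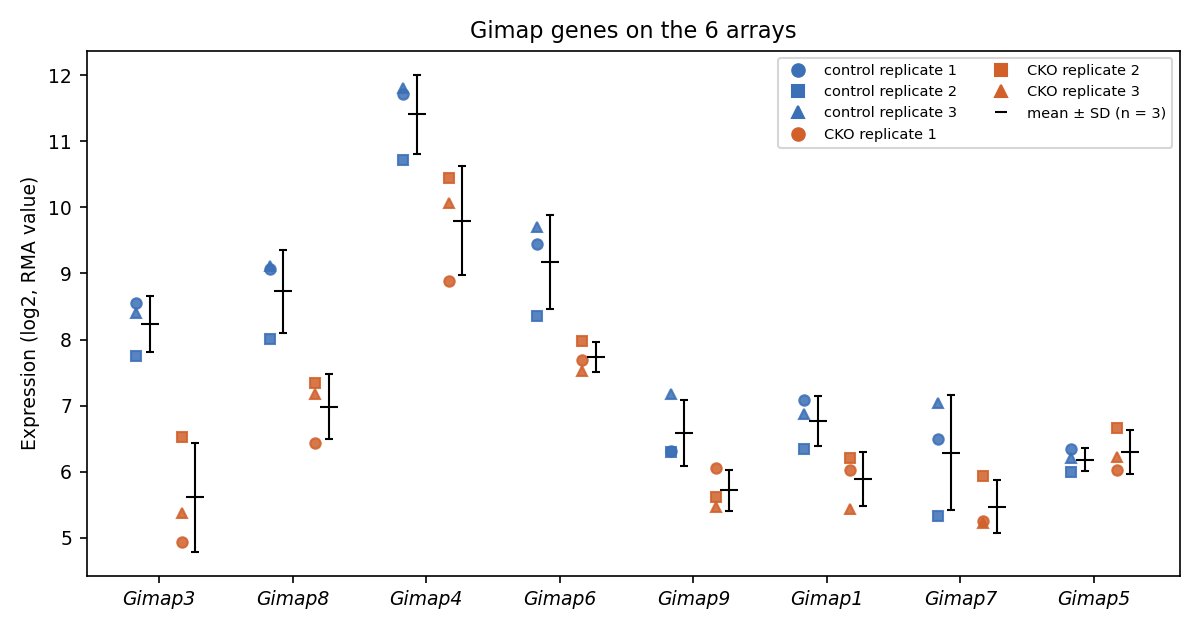
Expression of the 8 Gimap genes (log2 RMA value, vertical axis) on each of the 6 arrays, ordered by the difference between groups; blue points are control arrays, orange points CKO arrays, and black bars the mean ± SD of 3 arrays. The CKO points lie below all control points for 6 genes and overlap them for Gimap7 and Gimap5; for Gimap5 the point of CKO replicate 2 is the highest of all 6.

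Gimap3 and Gimap5 are neighbouring genes for membrane-anchored GTPases; Gimap5 is needed for the survival of peripheral T cells, and Gimap3 is its close relative in the mouse. They stood at opposite ends of the family. Gimap3 was at 8.55, 7.75 and 8.40 on the control arrays, replicates 1 to 3, and at 4.93, 6.53 and 5.38 on the CKO arrays in the same order. All CKO values were below all control values, with a gap of 1.22 between the nearest arrays, the widest gap of the family. The mean went from 8.23 ± 0.43 (SD, n = 3) to 5.61 ± 0.83, a difference of -2.62 (SE 0.44, 95% interval -3.63 to -1.61, limma adjusted p = 0.104).

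Gimap5 was at 6.34, 6.00 and 6.21 in controls and at 6.02, 6.66 and 6.22 in CKO. The groups overlapped, with CKO replicate 2 above every control array, and the whole range over the 6 arrays was 0.66, the narrowest of the family. Its difference was 0.12 (SE 0.29, 95% interval -0.54 to 0.77, limma adjusted p = 0.897), an interval that does not hold the difference seen for Gimap3 but leaves room for a modest change either way. The sign of this small value turned under another scaling of the arrays, to -0.071 with quantile normalization. By its mean over the arrays, Gimap5 ranked at percentile 33.0 of all probe sets, with Gimap7 and Gimap9 lower, at 25.9 and 31.3. Whether the narrow range of Gimap5 came from a low signal was not tested. The RefSeq gene table lists Gimap5 among the synonyms of Gimap3; both probe sets were matched by Entrez gene number, and their values were not alike.

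Within an array, Gimap3 minus Gimap5 was 2.21, 1.75 and 2.19 in controls and -1.09, -0.13 and -0.84 in CKO. The groups did not overlap, and the change of Gimap3 exceeded that of Gimap5 by -2.74. An exact two-sided permutation test of 3 against 3 arrays gave p = 0.1, which is the smallest it can give, and 0.2 after Benjamini-Hochberg adjustment over all 28 pairs of members. Among those pairs, 14 had group values that did not overlap. Gimap3 took part in 7 such pairs, all that it had, and Gimap5 in 6 of its 7. Of the 15 pairs without either gene, 2 did not overlap. Gimap3 and Gimap5 have the largest and the smallest difference of the family, so the counts with them largely restate that. The same count was not made for pairs of other genes, so no background share can be given.

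The stretches before the start of these genes are shown because 2 adjacent members lay at opposite ends of the family by group difference. That contrast did not pass a test (exact two-sided permutation p = 0.2 after adjustment). The stretch of Gimap4 is added from the members that differed by an amount in between. Sequences are from the RefSeq promoter table (GRCm38.p6), which holds windows for all 8 members, and cover the 250 bases before the annotated start, 5′ to 3′ on the strand of the gene. Gimap3 is read from chr6:48770852-48771101 on the minus strand, Gimap5 from chr6:48745947-48746196 and Gimap4 from chr6:48684328-48684577 on the plus strand. Capitals mark CAGGAAG, an extended Ets-type motif, and TGTGGT, the core of a Runx motif, on either strand; Ets and Runx proteins are transcription factors used in lymphocytes and other blood cells.
Gimap3: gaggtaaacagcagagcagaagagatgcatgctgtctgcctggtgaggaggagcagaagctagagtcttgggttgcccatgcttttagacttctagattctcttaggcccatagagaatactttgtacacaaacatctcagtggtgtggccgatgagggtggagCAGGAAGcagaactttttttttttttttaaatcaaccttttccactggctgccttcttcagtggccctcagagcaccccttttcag
Gimap5: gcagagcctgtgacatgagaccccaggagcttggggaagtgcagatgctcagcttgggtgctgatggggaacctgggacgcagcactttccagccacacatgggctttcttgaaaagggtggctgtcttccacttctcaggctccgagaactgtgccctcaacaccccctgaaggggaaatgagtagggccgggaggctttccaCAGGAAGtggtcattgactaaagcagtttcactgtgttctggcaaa
Gimap4: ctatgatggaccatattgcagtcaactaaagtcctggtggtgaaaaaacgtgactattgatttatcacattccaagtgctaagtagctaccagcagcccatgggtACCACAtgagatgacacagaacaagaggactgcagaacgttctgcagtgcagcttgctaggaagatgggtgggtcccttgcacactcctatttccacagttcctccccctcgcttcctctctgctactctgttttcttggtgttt

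Both Gimap3 and Gimap5 held CAGGAAG, beginning 86 and 46 bases before the start. Of the 9 windows of the family (Gimap8 has 2), 3 held it on either strand, those of Gimap3, Gimap5 and Gimap9, against 10.8% of all 32851 windows. TGTGGT was present in 3 of 9, of Gimap1, Gimap4 and Gimap7, against 14.0%, always on the reverse strand. A pair of GAAA on the same strand with any 2 bases between, an interferon-response type motif, was in 0 of 9 and in 2.98% of all. GGAA, which also lies within CAGGAAG, was in 8 of 9 and in 93.4% of all. CANNTG was found in 7 of 9 (66.2%), CACCC in 6 of 9 (52.0%) and TATAAA in 1 of 9 (12.4%), the percentages again being those of all windows. The longer Ets-type motif was thus held by the member with the largest group difference and by the one with the smallest. A match is a run of letters in a window, with no measurement of binding.

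Gimap1, which mature T and B cells need for development and survival, was at 7.08, 6.34 and 6.88 in controls and 6.02, 6.21 and 5.44 in CKO. The highest CKO array lay only 0.13 below the lowest control array. Its difference was -0.88 (SE 0.33, limma adjusted p = 0.436).

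Gimap4, a cytosolic member tied to the death of T cells, was at 11.71, 10.72 and 11.80 in controls and 8.88, 10.45 and 10.07 in CKO. The group gap was 0.27, set by control replicate 2 and CKO replicate 2. The mean went from 11.41 ± 0.60 to 9.80 ± 0.82 (n = 3), a difference of -1.61 (SE 0.47, limma adjusted p = 0.302). It was -1.15 without CKO replicate 1, the lowest array, and -1.96 without control replicate 2.

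Gimap8, a large member that carries several GTP-binding domains, was at 9.07, 8.01 and 9.12 in controls and 6.43, 7.35 and 7.18 in CKO. All CKO values were lower, with a gap of 0.66. The difference of -1.75 (SE 0.40, limma adjusted p = 0.177) came second in the family to that of Gimap3.

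Gimap6, a binding partner of an autophagy protein of the GABARAP family, was at 9.44, 8.36 and 9.71 in controls and 7.69, 7.98 and 7.53 in CKO. The controls spread more (SD 0.71) than the CKO arrays (SD 0.23), again through control replicate 2. The difference was -1.44 (SE 0.39, limma adjusted p = 0.245).

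Gimap7 and Gimap9 were the remaining members with lower means. Gimap7, a GTPase that is active as a dimer, was at 6.50, 5.33 and 7.04 in controls and 5.26, 5.93 and 5.22 in CKO. Control replicate 2 fell among the CKO arrays, so the groups overlapped; the difference was -0.82 (SE 0.45, limma adjusted p = 0.57), -1.30 without that array and -0.45 without control replicate 3. Gimap9 was at 6.31, 6.30 and 7.17 in controls and 6.06, 5.62 and 5.47 in CKO. Its groups did not overlap but were 0.24 apart, and the difference was -0.88 (SE 0.34, limma adjusted p = 0.451).

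Ordered by the size of the difference, Gimap3 was followed by Gimap8, Gimap4 and Gimap6, then by Gimap9, Gimap1 and Gimap7, and last by Gimap5. Gimap9 and Gimap1 were tied at -0.88. Of the pairs next to each other in this order, the first and the last had within-array differences that did not overlap between groups. The changes were -0.87 for Gimap3 minus Gimap8 and 0.94 for Gimap5 minus Gimap7. Each had an exact two-sided permutation p of 0.1, the smallest possible, and 0.2 after Benjamini-Hochberg adjustment over all pairs of members. The 5 pairs between the first and the last overlapped. The order was taken from the same values, so these pairs are a description and give no independent support. All 8 members lay above the dimmest 20% of probe sets and 3 of them, Gimap4, Gimap6 and Gimap8, above the dimmest 50%. How far each probe set stood above background was not assessed.

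Single arrays recurred at the same place within their group. Control replicate 2 was the lowest control array for 8 of 8 members, and CKO replicate 2 the highest CKO array for 7 of 8. The lowest CKO array was CKO replicate 1 for 4 members and CKO replicate 3 for 4. Averaged over the family, deviations from the 6-array mean came to 0.82, 0.05 and 0.99 for the control arrays, replicates 1 to 3, and to -0.89, -0.21 and -0.74 for the CKO arrays.

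Leaving out single arrays changed which members were called. Without CKO replicate 1, Gimap3 (-2.28, limma adjusted p = 0.0175) and Gimap8 (-1.47, adjusted p = 0.0442) passed; in that setting 2209 probe sets of all passed, and the CKO group was only the pair of arrays with a narrow range. No other single omission called a member. Without control replicate 2 and CKO replicate 1 together, 4 members passed, Gimap3, Gimap8, Gimap6 and Gimap4, beside 2516 probe sets in all; without CKO replicates 2 and 3, all 8 were lower with a median of -1.26, and no member passed. That last fit had 1 CKO array, assumed to vary as the controls do, so its lack of calls says nothing about the members. Leaving out these pairs of arrays was a choice made after seeing the data.

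**Figure D2:**
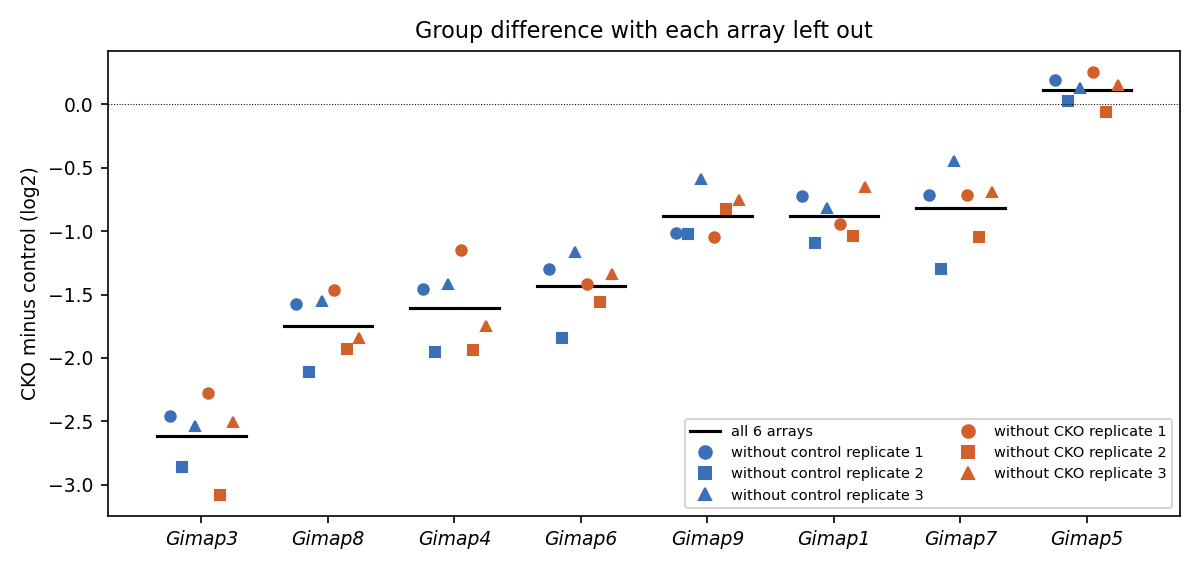
Difference between CKO and control (log2, vertical axis) for each Gimap gene with all 6 arrays (black line) and with each array left out in turn (points; blue, a control array left out; orange, a CKO array left out). All points of 7 genes lie below 0, from -3.08 for Gimap3 to -0.45 for Gimap7, while those of Gimap5 lie between -0.063 and 0.26.

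The 8 genes are a tandem cluster on chromosome 6, with 0 other protein-coding genes between the first and the last in the RefSeq gene table (GRCm38.p6, used here for the order only). The order is Gimap8, Gimap9, Gimap4, Gimap6, Gimap7, Gimap1, Gimap5 and Gimap3. The differences did not follow it: Gimap3 and Gimap8 at the ends had the most negative values, and Gimap5 beside Gimap3 the only positive one. Of the 6 nearest protein-coding genes, 3 on each side, 5 were measured and Gm7932 was not analysed here. Their differences lay between -0.36 and 0.44. Of these 5, 0 had all CKO arrays below all controls, a pattern of only 8.48% of all probe sets. Tmem176b and Tmem176a, membrane protein genes of myeloid cells next to Gimap3, differed by 0.28 (SE 0.32) and -0.36 (SE 0.43). On the other side Zfp775, a zinc finger gene, differed by 0.44 (SE 0.28) with all CKO arrays above all controls, a pattern of 5.94% of probe sets, and Repin1 and Gm5111 by -0.26 and -0.03. The limma adjusted p of these 5 genes lay between 0.608 and 0.982.

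**Figure D3:**
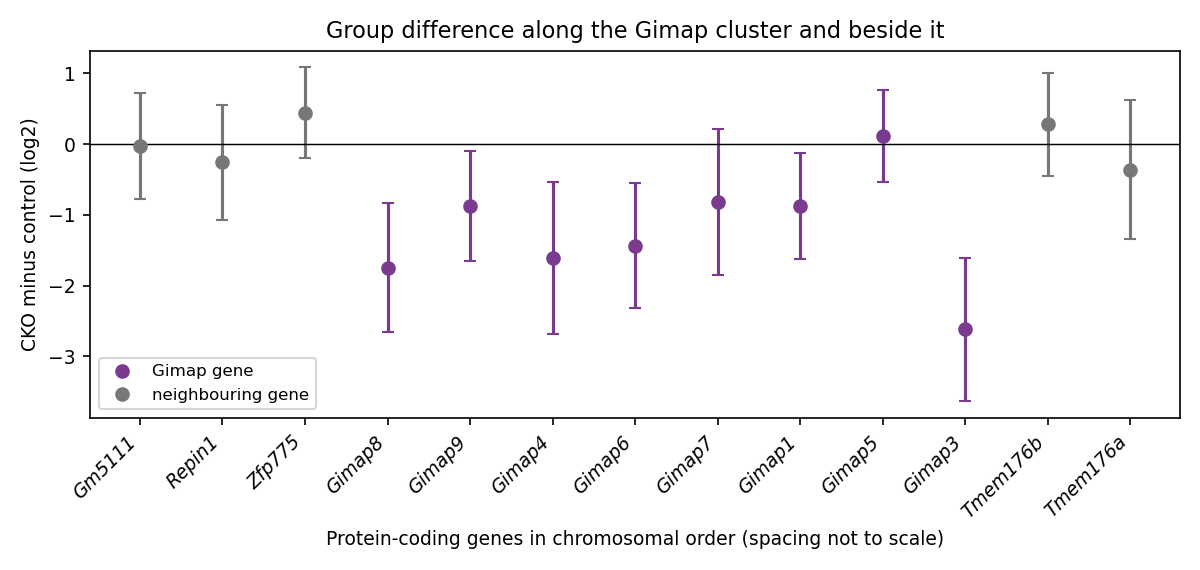
Difference between CKO and control (log2, vertical axis) with its 95% interval from limma for the Gimap genes (purple) and their measured neighbours (grey), in chromosomal order with spacing not to scale. The intervals of the 5 neighbours and of Gimap5 and Gimap7 cross 0, and those of the other 6 Gimap genes lie below it, before any adjustment for the number of genes.

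T cell identity genes had lower values in CKO as well. Of 20 listed genes 18 were measured and all 18 were lower in CKO, with a median difference of -2.54. For 15 of them all CKO arrays lay below all controls, as for 8.48% of all probe sets. With all 6 arrays at equal weight 0 passed over all genes, as for every list below. Mean deviations of the 18 genes were 0.08 to 1.86 on the control arrays and -1.56 to -1.03 on the CKO arrays. Control replicate 2 was again the lowest control. Cd3d, another CD3 subunit, was at 9.94, 8.75 and 9.93 in controls and 6.16, 6.52 and 6.63 in CKO (limma adjusted p = 0.0745). Themis, a T cell signalling adaptor, differed by -3.26 and Cd3g and Cd8a by -4.04 and -3.49. With array weights 14 of the 18 passed, all lower, without CKO replicate 1 it was 11, without control replicate 2 it was 9 and without both of those arrays 16, with medians between -3.12 and -2.39; in these settings 1694, 2209, 125 and 2516 probe sets passed in all. The part of T cell number in the Gimap values was not tested; of the members, only Gimap3 reached the median difference of these T cell genes.

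Genes of lymphocyte survival and homeostasis, the setting in which Gimap proteins are known to act, were listed separately. Of 17 listed, 14 were measured and 12 were lower, with a median of -0.53. In 3 of them all CKO arrays lay below all controls, as in 8.48% of all probe sets. Without CKO replicate 3, 9 of 14 were lower. Without control replicate 2 and CKO replicate 1, 2 passed, both lower, beside 2516 probe sets in all. Il7r, the receptor chain for the survival cytokine interleukin-7, was at 12.62, 12.17 and 12.58 in controls and 11.54, 11.14 and 11.80 in CKO (difference -0.96, SE 0.30, limma adjusted p = 0.323). Mcl1, which protects cells from death, and Bcl2l11, which promotes it, differed by -0.97 and -0.88, and Bak1, a mitochondrial death effector, by -0.85. Bcl2, another survival gene, and S1pr1, a receptor for leaving lymphoid tissue, were slightly higher, by 0.16 and 0.52, with overlapping groups.

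Other lymphocyte lists varied. Effector and activated T cell genes were lower in 10 of 12 (median -1.63), with Tnfrsf4, a costimulatory receptor, at -2.87, Tigit, an inhibitory receptor, at -1.66 and Ctla4 at -3.46, while Il17a and Havcr2 differed by 0.44 and 0.14. NK cell genes were lower in 11 of 12 (median -1.19), with Il2rb, a chain of the interleukin-2 receptor, at -3.33 and Klrb1c, the NK1.1 antigen, at -1.49. B cell genes were lower in 8 of 12 measured of 13 listed (median -0.28), with Cd22, a B cell lectin, at -2.22 and Jchain, a plasma cell gene, at -4.98, and Bank1 and Cr2 at 0.51 and 0.45. Mean deviations of the B cell genes were 0.08 to 0.64 on control and -0.72 to 0.01 on CKO arrays. Their median was -0.12 without CKO replicate 1, with 6 of 12 lower, and -0.11 without control replicate 2. With array weights, 6 of the 12 effector T cell, 5 of the 12 NK cell and 2 of the 12 B cell genes passed, all of them lower. In that setting 1694 of all 22206 probe sets passed. Without CKO replicate 1 the counts were 5, 0 and 2, beside 2209 probe sets in all. Without control replicate 2 and CKO replicate 1 they were 9, 6 and 2, beside 2516.

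Markers of endothelial cells, another known source of Gimap RNA, were mixed in direction. Of 15 genes 8 were lower and 7 higher in CKO; 4 had all CKO arrays below all controls and 1 had them above, against 8.48% and 5.94% of all probe sets, and 4 were lower and 1 higher at an unadjusted p under 0.05. The median was -0.12, and the mean deviations of the list were -0.05 to 0.17 on control and -0.19 to 0.03 on CKO arrays. Abcb1a, a drug efflux transporter that leukocytes also carry, differed by -1.10, and the growth factor receptor genes Kdr and Flt1 by -0.86 and -0.67, each without overlap. Slco1a4, a transporter of brain vessels, differed by 0.90 in the other direction and Emcn by 0.83. Without control replicate 3 the median was 0.04. With array weights 2 of the 15 genes passed, both lower, beside 1694 of all 22206 probe sets. Without CKO replicate 1, 3 passed, 2 of them lower, beside 2209 probe sets. Without control replicate 2 and CKO replicate 1, 5 passed, 4 of them lower, beside 2516. The part of endothelial RNA in the Gimap values was not tested.

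Interferon-inducible GTPases, another class of immune GTPases, were lower in 12 of 12 measured of 15 listed (median -2.05). All 12 had every CKO array below every control array, as did 8.48% of all probe sets. Igtp, a member of the IRG family, was at 10.22, 8.95 and 10.93 in controls and 8.06, 7.26 and 7.14 in CKO (limma adjusted p = 0.133), and Mx1, Mx2 and Gbp4 differed by -2.19, -1.83 and -2.95. Their mean deviation on control replicate 2 was -0.09, between the other controls (1.33 and 2.20) and the CKO arrays (-1.23 to -1.05). With array weights 12 of 12 passed, beside 1694 probe sets in all. Without control replicate 2 and CKO replicate 1 it was also 12 of 12, beside 2516. Leaving out either of these arrays alone, 5 passed, beside 125 without control replicate 2 and 2209 without CKO replicate 1.

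Among other cells, blood monocyte genes were lower in 10 of 10 (median -1.75), with Fn1 at -2.48 and Lyz2 at -2.01 at the smallest p, and neutrophil genes in 7 of 9 (median -0.36). Homeostatic microglia genes were lower in 2 of 11 measured of 12 listed (median 0.33). Fcrls and Gpr34 were at 1.21 and 0.89, and the 2 lower genes, Tmem119 and Sall1, at -0.44 and -0.16. With array weights 7 of the 10 monocyte genes passed, all lower, beside 1694 probe sets in all. Without CKO replicate 1 it was 5, beside 2209. Without control replicate 2 and CKO replicate 1 it was 7, beside 2516. The part of monocyte RNA in the Gimap values was not tested. Without CKO replicate 1 the microglia median was 0.17, with 3 of 11 lower. Astrocyte, oligodendrocyte and neuron genes had medians of 0.71, 0.45 and 0.72, with 2 of 9, 2 of 6 and 0 of 6 genes lower. Without CKO replicate 1 these medians were -0.55, -0.17 and 0.26, and without control replicate 2 they were 1.31, 0.76 and 1.24. On CKO replicate 1, the array with the highest astrocyte markers, 4 Gimap members had their lowest CKO value. On control replicate 2, the array with the next highest astrocyte markers (mean deviation 1.08), 8 of 8 members had their lowest control value. The part of dilution by neural RNA in these values was not tested.

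**Figure D4:**
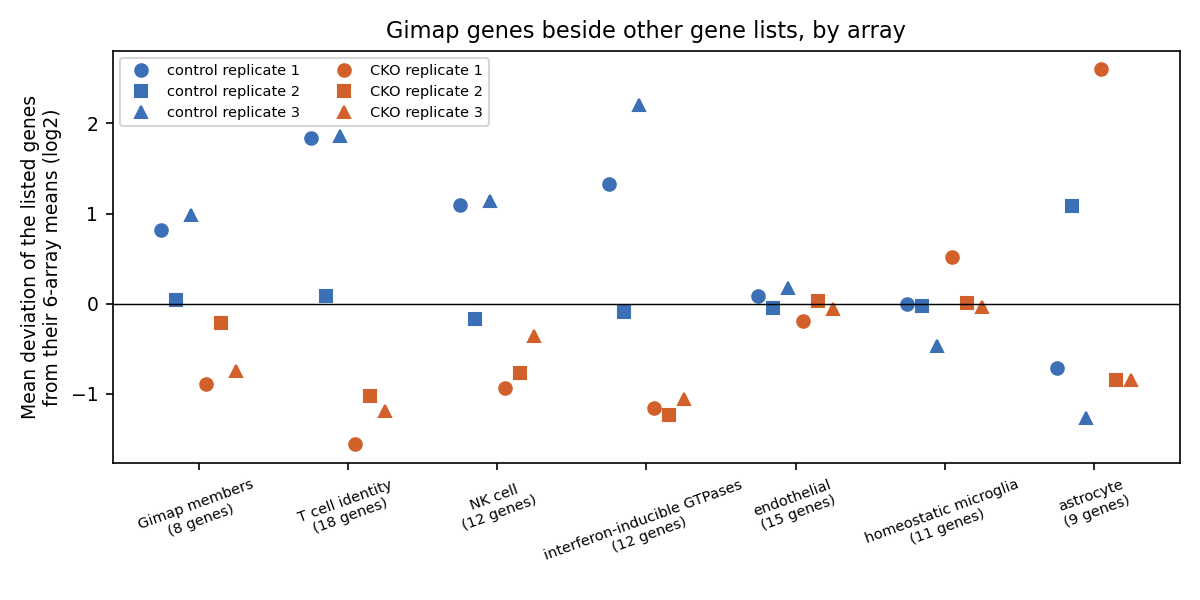
Mean deviation of the genes of each list from their own 6-array means (log2, vertical axis), 1 point per array, for the 8 Gimap genes and 6 other lists; blue points are control arrays and orange points CKO arrays. Gimap, T cell, NK cell and interferon-inducible GTPase points of CKO arrays lie below those of controls. Endothelial points lie between -0.19 and 0.17, and astrocyte points are highest on CKO replicate 1 (2.60).

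Genes whose values followed the family were sought by the root mean square distance, over the 6 arrays, between a gene's deviations from its mean and the median deviations of the 8 members. The measure asks for the same size of change as well as the same order, and is a description over 6 arrays of 2 groups. Gimap6 lay at 0.14, Gimap7, Gimap1 and Gimap8 at 0.29, 0.31 and 0.34, and Gimap9 and Gimap4 at 0.39 and 0.43. Gimap5 and Gimap3 lay at 0.74 and 0.78, farther than 32.9% and 41.4% of all named genes. The members themselves set these medians, so their own distances are partly fixed in advance. The 10 nearest genes outside the family were Slfn8, Tmem123, Dtx3l, Ifih1, Sp110, Rftn1, Ikbke, Rbms1, Il27ra and Cstdc4, at 0.11 to 0.17. Only 4 of these 10 stayed among the nearest when the family was summarised by its mean, and 1 (Rftn1) with quantile normalization, so the names depend on the measure.

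Single members had different nearest genes. H2-K1, an MHC class I heavy chain, Dpep2 and Ifit3b were nearest to Gimap3 at 0.24 to 0.27, and Gpr132, Tigit and Samhd1 to Gimap8 at 0.14 to 0.20. Gimap4 had Il18bp, Gpr132 and Ptger4 at 0.18 to 0.23, so Gpr132, a G protein-coupled receptor gene of leukocytes, was near to both Gimap4 and Gimap8. Tmem123, Il27ra and Myo1g lay nearest to Gimap6 (0.11 to 0.13), Ms4a8a, Ccnd2 and Pgls to Gimap1 (0.10 to 0.12), Map3k8, Podnl1 and Dusp2 to Gimap7 (0.17 to 0.22) and Racgap1, Sestd1 and Msmp to Gimap9 (0.06 to 0.10). Gimap5, which hardly varied, had Zbtb22, Tmem151a and Fam126a at 0.04 to 0.06.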

How the data were processed

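Values are log2 expression as deposited: the authors applied RMA, which corrects background, normalizes and summarises probes, according to the submitters' processing notes (no version or settings stated there). That they are log2 was inferred from their range. TRIzol extraction and an Affymetrix whole-transcript labelling kit are recorded in the labels' protocols. Of 22206 probe sets, 19572 named 1 gene, 0 several and 2634 none; all 19572 matched the RefSeq table by Entrez number.

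limma 3.58.1 (R 4.3.3) compared CKO with control without covariates, two-sided, and p-values were adjusted by Benjamini-Hochberg over the whole table, with calls under 0.05. The fit was tested on simulated data. The 8 members, the 13 other gene lists (T, effector T, NK and B cells, lymphocyte survival, endothelium, monocytes, neutrophils, microglia, astrocytes, oligodendrocytes, neurons, interferon-inducible GTPases) and the motifs were chosen with earlier results of these data known. Listed genes with no value were not analysed here. Genes named are all members, up to 4 of a list by smallest p and 2 against it, the nearest genes, 3 neighbours on each side, and the reference genes P2ry12 and Cd3e; Ngp and S100a8 were chosen after their values were seen.

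Alternatives were quantile normalization, median centring, leaving out the dimmest 20% or 50%, trended robust moderation, weighting of arrays, a replicate block, omission of each array or of array pairs, averaged probe sets, and an adjusted p of 0.1.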

Additional observations from a re-analysis of the deposited data

How the results depend on the processing

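With 3 arrays a group, the counts of calls depended on the setting more than the directions did. Over all probe sets, 2 were called; the count was 1 under quantile normalization, 1 without the dimmest 20% and 1 without the dimmest 50%, 4 with a trended robust fit, 44 at an adjusted p of 0.1 and 1694 with array weights. Leaving out 1 array gave 0 to 2209, the highest without CKO replicate 1. Without control replicate 2 and CKO replicate 1 it was 2516, and without CKO replicates 2 and 3, which left 1 CKO array and took the spread from the controls, it was 0, a count that says nothing about stability. Of the Gimap members 0 were called, but 4 with array weights (Gimap3, Gimap4, Gimap6 and Gimap8), 0 to 2 when 1 array was left out, and 4 without control replicate 2 and CKO replicate 1; the cause was not tested.

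The count of 7 members lower was 7 or 8 in all settings that kept the 8 members. Without the dimmest 50%, which kept 3 members by construction, 3 of 3 were lower and the median was -1.61. Gimap5, at 0.12, turned to -0.071 with quantile normalization, -0.0067 with median centring and -0.16 without CKO replicates 2 and 3, and ranged from -0.063 (without CKO replicate 2) to 0.26 when 1 array was left out. All measured T cell identity genes were lower in each setting. With 1 array left out, the endothelial median ranged from -0.27 to 0.04, the astrocyte median from -0.55 to 1.31 and the oligodendrocyte median from -0.17 to 0.76, their signs turning without control replicate 3, CKO replicate 1 and CKO replicate 1. Of the 10 genes nearest to the family, 4 stayed with the mean profile and 1 with quantile normalization.

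With the replicate number as a block, 0 probe sets and 0 members were called. Same-numbered deviations correlated across probe sets at -0.0055, -0.23 and 0.25. With 3 arrays a group these values cannot decide whether the numbers pair the samples, and the labels do not say. Outlying samples were not tested for, since each group held only 3 arrays.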
